A study of Mus musculus with 4 samples.

Results

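The transforming growth factor beta (TGF-beta) and bone morphogenetic protein (BMP) genes described here are 44 genes of the pathway's ligands, receptors, Smads, antagonists, nuclear corepressors and Id targets, of 18193 genes measured. A gene was a member if its symbol stood on a set list, and every probe set of the array that the platform annotation gives to such a symbol was used, 98 probe sets in all. By their titles the arrays came from endothelial cells made from mouse induced pluripotent stem cells (miPSC), that is, from somatic cells returned to pluripotency. There were 2 groups of 2 arrays, 1 array per mouse: 1 of control mice and 1 of mice made obese by diet (DIO, diet-induced obesity). All cells came from mice aged 24 weeks, were kept in endothelial medium, and were lifted with trypsin before RNA isolation. Under cell type the labels give iPSC, although endothelial derivatives are named in the titles, and no sort is mentioned. The labels name no strain, sex, diet composition or transgene, and do not say how many stem cell lines each mouse gave. Replicates were called biological duplicates, and the titles name a separate mouse for each. With 1 array per mouse, spread between mice, between cell lines and between preparations cannot be told apart. The p-values measure these together, and the spread may be partly technical.

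Ligands of the TGF-beta family, among them the TGF-betas, activins and BMPs, bind pairs of type I and type II receptor kinases at the cell surface. The type I receptor phosphorylates receptor-regulated Smads, Smad2 and Smad3 on the TGF-beta and activin branch and Smad1, Smad5 and Smad9 on the BMP branch, and these enter the nucleus with the shared Smad4. Smad6 and Smad7 restrain the pathway, and the Id genes, which encode inhibitors of helix-loop-helix transcription factors, are classic BMP targets. In blood vessels the endothelial type I receptor Acvrl1 (ALK1) responds to circulating BMPs, and the balance between the branches bears on vessel sprouting and on the change of endothelial cells into mesenchymal ones.

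Levels are given as log2 values, on which a difference of 1 is a 2-fold change, in the order control 1, control 2, DIO 1, DIO 2. A difference is the DIO mean minus the control mean with its standard error (SE), and each gene is represented by its brightest probe set. The question was whether expression differed between cells of obese and control mice. No member passed the threshold of 0.05 after Benjamini-Hochberg adjustment over all genes in limma, and neither did any other gene, so 0% of genes were called. The lowest adjusted p of any gene was 0.728. At an unadjusted p below 0.05 there were 6 members, or 13.6%, against 6.58% of all genes. With a higher level in DIO these were the ligand Bmp8b and the BMP target Id3. With a lower level in DIO they were Inhbb, Acvr2a, Smad5 and Tgfbi.

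The DIO mean lay above the control mean for 18 members and below it for 26. The 2 DIO arrays exceeded the 2 controls for 6 members, against 21.4% of all genes, and lay below them for 10 members, against 17.0% of all genes. Together this was 36.4% of members and 38.4% of all genes, so the share of members without overlap was near the background. The median difference was -0.03 over the members and 0.02 over all genes. The split of members by direction rests on the scaling: with every array centred on its median over the tested genes (7.13, 7.15, 7.08 and 7.02), 24 of the 44 lay higher in DIO (Bmp6, Tgfbr1, Smad9, Chrd, Tgif1 and Skil turned from lower to higher), and the median of all genes moved to 0.11. Of the members, 33 had a mean level above 7.09, the median of all genes.

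**Figure D1:**
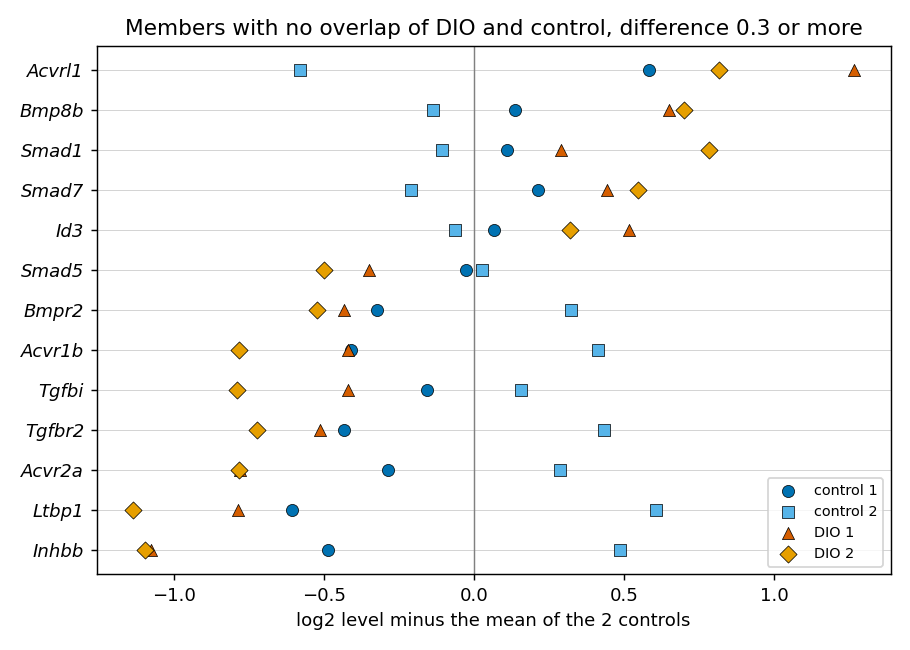
Log2 level of each array minus the mean of the 2 controls, for the 13 members whose DIO and control arrays did not overlap and differed by 0.3 or more. Points are single arrays. Of these members 5 were higher and 8 lower in DIO, and control 2 was the farthest from the DIO arrays for all 13.

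The cells were checked against marker genes. The 14 endothelial markers averaged 6.03, 6.31, 5.96 and 5.87, and 4 had a mean level above 7.09: Cdh5 (8.37 to 9.34 over the arrays), Esam (8.66 to 9.11), Egfl7 (8.27 to 8.98) and Flt1 (6.98 to 7.65). Pecam1 ran from 6.05 to 7.34 and Kdr from 6.27 to 6.83, while Tie1, Emcn, Erg and Fli1 stayed between 3.44 and 4.66 on every array. All 12 pluripotency markers lay above 7.09, with averages of 10.23, 9.17, 10.64 and 9.53. The 7 simple epithelial markers averaged 12.12 to 12.27, and all 7 lay above 7.09. Thus all pluripotency and simple epithelial markers but 4 of 14 endothelial ones exceeded the median gene, and the endothelial name rests on the titles. The 6 macrophage markers averaged 6.48 to 6.61 but were uneven. Cd68 (10.30 to 11.09) and Csf1r (11.03 to 11.66) were bright, while Ptprc, Adgre1, Itgam and Lyz2 stayed between 3.32 and 5.13. Of 12 listed epidermal keratinocyte markers 11 were measured, and all 11 were highest in control 2, with averages of 6.73, 11.63, 7.88 and 8.71. The 12 fibroblast and smooth muscle markers averaged 6.26, 6.97, 6.53 and 6.71, and 6 of them were highest in control 2. In bulk RNA fewer cells of a type and less RNA per cell cannot be told apart. The spiked-in poly-A controls of the array, RNA added before labelling, averaged 7.47, 8.05, 7.41 and 9.08, and the 18S control 12.60, 12.65, 12.30 and 11.96.

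The member genes differed widely between the controls themselves. Control 2 was the highest of the 4 arrays for 22 of the 44 members, or 50.0%, while it was the highest for 21.0% of all genes. For 16 members control 2 exceeded control 1 by over 0.5, which was 36.4% of members and 8.83% of all genes, and for 9 members it was lower by over 0.5. Counting both directions, 56.8% of members and 22.3% of all genes had such a gap. By role, such a gap was seen in 8 of 10 receptors, 7 of 11 ligands, 5 of 7 processing and antagonist genes, 2 of 3 corepressors, 3 of 5 targets and 0 of 8 Smads; the difference between roles was not tested. The epidermal markers were high on the same array, and 11 of the 12 pluripotency markers were lower there than in control 1 by over 0.5. The pluripotency markers were also lower in DIO 2 than in DIO 1, with a median gap of -1.15, against -1.18 for control 2 minus control 1. For the members these medians were -0.08 and 0.16. The part of either marker group in the members' levels was not tested.

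A comparison with 1 control at a time shows how far the calls rest on that array. With control 1 left out of the limma fit, so that control 2 stood alone and was assumed to vary like the DIO arrays, 23 members (52.3%) had an unadjusted p below 0.05, against 20.3% of all genes. After adjustment 3 members passed in that fit, Bmp2, Tgfb2 and Inhbb, all lower in DIO, against 2.65% of all genes. With control 2 left out instead, 8 members (18.2%) had an unadjusted p below 0.05, against 12.4% of all genes, and none passed after adjustment in limma. Leaving out DIO 1 left 1 member, against 1.62% of all genes, and leaving out DIO 2 left 0 members, against 0.940% of all genes, at that same unadjusted limma p, and 0 genes passed after adjustment in either fit. The sign of the difference was kept in all 4 of these fits for 19 members. It turned for 11 members without control 2, for 13 without control 1, for 5 without DIO 1 and for 4 without DIO 2.

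**Figure D2:**
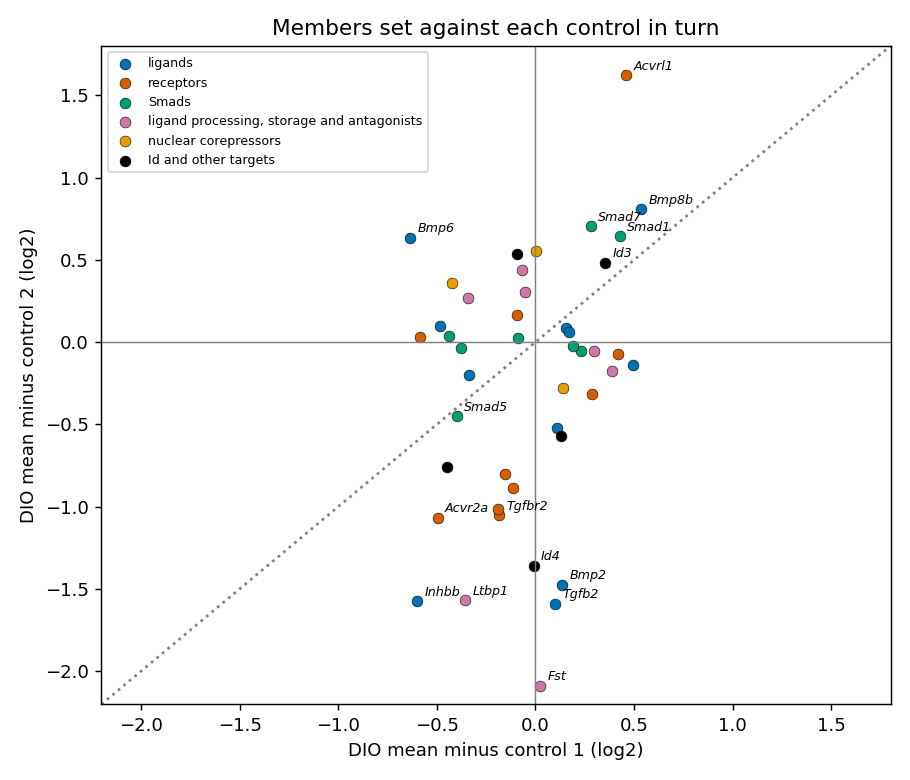
DIO mean minus control 1 (x axis) and DIO mean minus control 2 (y axis), both in log2, with 1 point per member coloured by role. Points on the dotted line differ equally from both controls: Smad5, Bmp8b and Id3 lie near it, whereas Fst, Tgfb2, Bmp2 and Id4 lie near 0 against control 1 and between -2.09 and -1.36 against control 2.

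Among the 11 ligands 4 had a higher and 7 a lower DIO mean, with a median difference of -0.19 that became 0.11 without control 2. Bmp8b, a BMP of germ cells and thermogenic fat, stood at 8.05 and 7.78 on the control arrays and at 8.56 and 8.61 on the DIO arrays. Both DIO arrays lay above both controls, with a mean difference of 0.67 ± 0.15 (SE, n = 2 per group, limma adjusted p = 0.728), a ratio of 1.59. The difference was 0.81 against control 2 alone and 0.54 against control 1 alone. Its other probe set read 6.86, 6.50, 7.75 and 7.80, again with no overlap, a difference of 1.10 ± 0.17.

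Inhbb, the activin and inhibin beta-B subunit, had a difference of the other sign. It read 7.71 and 8.69 on the control arrays and 7.12 and 7.10 on the DIO arrays, both DIO arrays below both controls. The difference was -1.09 ± 0.36 (SE, limma adjusted p = 0.728), so that the control level was 2.12 times the DIO level. Against control 1 alone it was -0.60. The dimmer probe set of Inhbb did not share that direction, with 5.34, 5.68, 5.86 and 5.75. Inhba, the beta-A subunit, differed by 0.18 with overlapping groups.

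Bmp4, an inducer of mesoderm, read 8.55 and 8.63 in the controls. The DIO arrays, at 9.18 and 8.24, lay on either side of both. Its mean difference of 0.12 ± 0.35 (SE, limma adjusted p = 0.949) became -0.35 without DIO 1.

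The ligands Tgfb2, Bmp2 and Bmp6 were picked for description after their values had been seen, because of the gap between their controls. Tgfb2, a TGF-beta of developing heart and epithelium, read 7.51, 9.20, 7.45 and 7.77: control 2 stood alone, and the remaining arrays lay between 7.45 and 7.77. Its difference of -0.74 ± 0.61 (SE) was -1.59 without control 1 and 0.10 without control 2, and all 4 of its probe sets had a lower DIO mean. Bmp2, a BMP of bone and heart cushion formation, read 5.64, 7.25, 5.87 and 5.69, the same shape. Bmp6, which governs hepcidin in the liver and is made by endothelial cells there, had its gap the other way, with 8.13, 6.86, 7.44 and 7.54, so that both DIO arrays lay between the controls. Of the rest, Tgfb3 was below both controls in both DIO arrays (mean difference -0.27) and Bmp5 above both (0.12), both at low levels: Tgfb3 peaked at 5.57 and Bmp5 at 3.99. Tgfb1 and Bmp7 had overlapping groups and differences of -0.20 and -0.19.

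All 10 receptors had a mean level above 7.09; 3 had a higher and 7 a lower DIO mean, and the median difference was -0.38. Without control 2 the median was -0.13 and 7 of 10 were lower, though not the same 7: Tgfbr1 turned higher and Bmpr1a lower. Acvrl1, the endothelial type I receptor ALK1, had the largest positive difference of all members. It read 7.47 and 6.31 on the control arrays and 8.16 and 7.71 on the DIO arrays, with no overlap. The difference of 1.04 ± 0.45 (SE, limma adjusted p = 0.730) is a ratio of 2.06, and it was 1.62 against control 2 alone and 0.46 against control 1 alone. Its second probe set gave 5.45 and 4.83 on the control arrays and 5.99 and 6.12 on the DIO arrays, also without overlap.

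Acvr2a, a type II receptor for activins and some BMPs, read 9.13 and 9.70 in the controls. Both DIO arrays read 8.63, below both. The difference was -0.78 ± 0.23 (SE, limma adjusted p = 0.728), the control level being 1.72 times that of DIO, and it stayed at -0.49 against control 1 alone. Its other probe set did not overlap either, with 8.73 and 8.62 against 8.36 and 8.33.

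In 3 other receptors both DIO arrays were below both controls, with control 2 far above control 1. Tgfbr2, the type II receptor of TGF-beta, read 9.69, 10.55, 9.61 and 9.40, a difference of -0.62 ± 0.33 (SE) that was -0.19 against control 1 alone. Acvr1b, the activin type I receptor ALK4, read 9.46, 10.28, 9.45 and 9.08, a difference of -0.60 ± 0.33 (SE) that was -0.19 against control 1 alone. Bmpr2, the type II BMP receptor mutated in heritable pulmonary hypertension, read 9.85, 10.50, 9.74 and 9.65, and its difference of -0.48 ± 0.26 (SE) was -0.16 against control 1 alone. Against control 2 alone these differences were -1.05 for Tgfbr2, -1.01 for Acvr1b and -0.80 for Bmpr2. The limma adjusted p was 0.750 for Tgfbr2, 0.757 for Acvr1b and 0.750 for Bmpr2. All 3 probe sets of Bmpr2 had a lower DIO mean, as had 2 of 3 of Tgfbr2 and 1 of 2 of Acvr1b. The other, dimmer Acvr1b probe set read 4.80 and 4.58 on the control arrays and 4.99 and 5.11 on the DIO arrays. There both DIO arrays lay above both controls, and the mean over the Acvr1b probe sets differed by -0.12.

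Overlapping groups were seen in Tgfbr3 and Acvr2b. Tgfbr3, the coreceptor betaglycan, read 11.14, 11.91, 11.22 and 10.82, with DIO 1 between the controls. Acvr2b, the second activin type II receptor, read 11.40 in control 1 and between 10.75 and 10.89 on the other arrays. Their differences were -0.50 ± 0.33 (SE, limma adjusted p = 0.776) for Tgfbr3 and -0.28 ± 0.25 (SE, limma adjusted p = 0.824) for Acvr2b. For Tgfbr3 it was -0.11 against control 1 alone and -0.89 against control 2 alone. Tgfbr1 (ALK5), Acvr1 (ALK2) and Bmpr1a (ALK3), type I receptors, differed by -0.01, 0.17 and 0.03 with overlapping groups.

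None of the 8 Smads differed by over 0.5 between the controls; 4 had a higher and 4 a lower DIO mean. The BMP-branch Smads Smad1 and Smad5 had differences of opposite sign. Smad1 read 9.39 and 9.17 on the control arrays and 9.57 and 10.06 on the DIO arrays, a difference of 0.54 ± 0.22 (SE, limma adjusted p = 0.728) and a ratio of 1.45. Smad5 read 8.79 and 8.84 on the control arrays and 8.46 and 8.31 on the DIO arrays, a difference of -0.42 ± 0.13 (SE, limma adjusted p = 0.728), the control level being 1.34 times that of DIO. Neither gene's groups overlapped, in any of the 3 probe sets of each. For Smad5 the difference was -0.45 against control 2 and -0.40 against control 1, and for Smad1 it was 0.64 and 0.43. Smad1 also rested on DIO 2, with 0.29 when that array was left out and 0.78 when DIO 1 was. Smad9, the third Smad of that branch, lay between 4.35 and 4.50 on all arrays.

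Smad7, the inhibitor that brings ubiquitin ligases to type I receptors, read 8.44 and 8.02 on the control arrays and 8.67 and 8.77 on the DIO arrays. The difference was 0.49 ± 0.19 (SE, limma adjusted p = 0.728), a ratio of 1.41, and both probe sets were without overlap. It was 0.28 against control 1 alone and 0.71 against control 2 alone. Smad6, which restrains the BMP branch, had overlapping groups, at 7.49, 7.01, 7.36 and 6.74.

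On the TGF-beta branch Smad2 read 10.26 and 9.91 on the control arrays and 9.84 and 9.91 on the DIO arrays. DIO 2 and control 2 are equal at this rounding, so the absence of overlap is slight, and the difference was -0.21 ± 0.17 (SE, limma adjusted p = 0.811). Against control 2 alone it was -0.035, and against control 1 alone -0.38. The second probe set of Smad2 gave -0.42, also without overlap. Smad3 differed by 0.09, its groups overlapping. Smad4, the shared partner, was nearly level at 11.25, 11.47, 11.47 and 11.42, a difference of 0.08 ± 0.14 (SE, limma adjusted p = 0.908). In a dimmer Smad4 probe set the DIO arrays lay below the controls (mean difference -0.33).

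**Figure D3:**
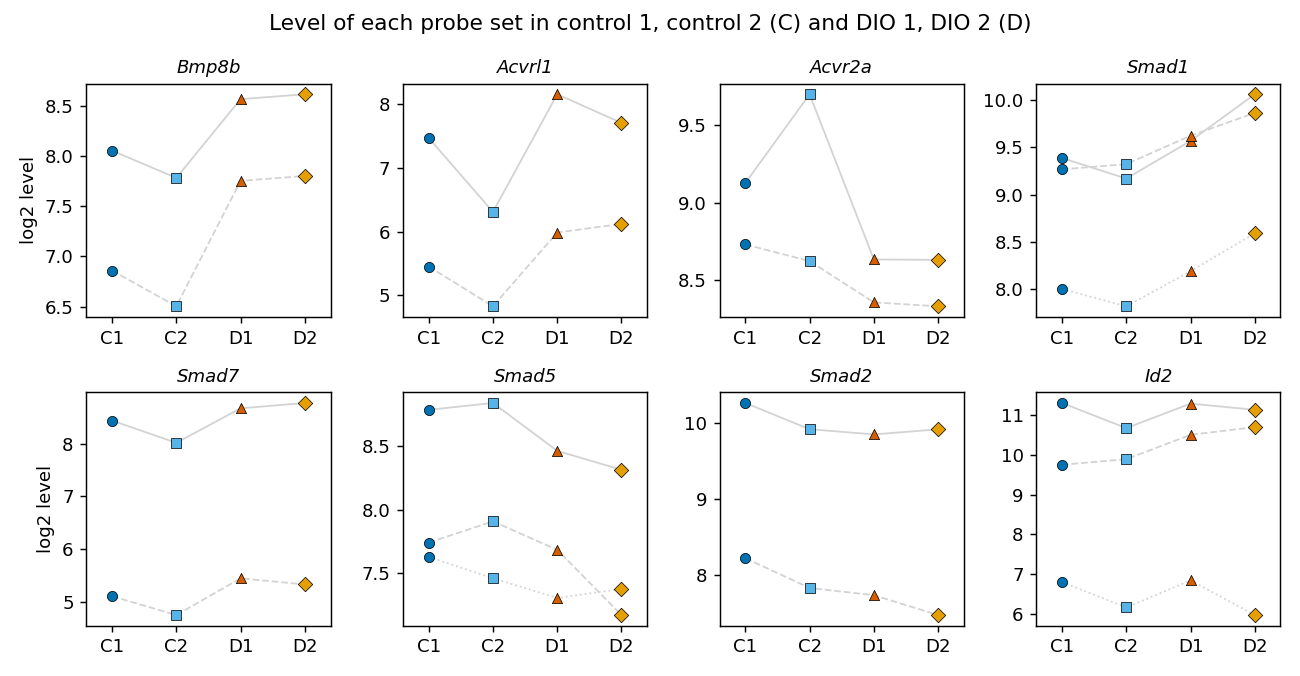
Log2 level of every probe set on each array (C1 and C2, controls 1 and 2, and D1 and D2, DIO 1 and 2). Shown are Id2 and the 7 members that have more than 1 probe set and no overlap in any of them. Grey lines join the 4 values of 1 probe set; the arrays have no order. In the panels of Bmp8b, Acvrl1, Smad1 and Smad7 every D point lies above every C point of its probe set, and in those of Acvr2a, Smad5 and Smad2 below.

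Of 7 genes of ligand processing, storage and inhibition, 4 had a higher and 3 a lower DIO mean. Ltbp1, which holds latent TGF-beta in the extracellular matrix, was the one without overlap. It read 6.0 and 7.21 on the control arrays and 5.82 and 5.47 on the DIO arrays, a difference of -0.96 ± 0.45 (SE, limma adjusted p = 0.735) that was -0.36 against control 1 alone and -1.57 against control 2 alone. Its other probe sets differed by 0.01 and -0.27. Fst (follistatin, an activin trap), added after its values were seen, had the widest control gap of all members, at 5.72, 7.83, 6.28 and 5.21. Against control 1 alone its difference was 0.02, and against control 2 alone -2.09. Bmp1, the protease that cleaves chordin and procollagens, read 7.75, 8.31, 8.14 and 8.12, both DIO arrays lying between the controls. Bambi, a receptor decoy, read 8.07, 7.56, 8.04 and 7.95, again between the controls. The differences were 0.11 ± 0.23 (SE, limma adjusted p = 0.930) for Bmp1 and 0.19 ± 0.22 (SE, limma adjusted p = 0.860) for Bambi. The BMP antagonists Grem1, Nog and Chrd had differences of 0.13, 0.12 and -0.04 with overlapping groups.

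The nuclear corepressors Ski, Skil and Tgif1, which hold Smad targets in check, had overlapping groups in their brightest probe sets. In that probe set Ski read 9.88 in control 1, 9.33 in control 2 and 9.84 and 9.93 in DIO, so that control 2 alone stood low. The difference of 0.28 ± 0.23 (SE, limma adjusted p = 0.811) was 0.003 against control 1 alone and 0.55 against control 2 alone. A second Ski probe set read 9.13 and 9.23 on the control arrays and 9.54 and 9.38 on the DIO arrays. There the groups did not overlap, with a difference of 0.28 ± 0.13 (SE), and control 2 was not the lowest array. Tgif1 differed between the mice of each group, not between the groups: 9.95 and 9.17 in the controls, 9.89 and 9.17 in DIO. Its mean difference was -0.03 ± 0.39 (SE, limma adjusted p = 0.992). Skil differed by -0.07.

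The DIO mean was higher for Id2 and Id3 and lower for Id1 and Id4. Against control 1 alone the differences of Id1, Id2 and Id4 in their brightest probe sets were 0.13, -0.09 and -0.01. The signs of Id1 and Id2 in these probe sets thus rest on control 2. That of Id4 was kept, but the difference was slight. No promoter sequence was available for Id1. The 250 bases upstream of the RefSeq start (GRCm38.p6) are shown for Id2, Id3 and Id4. They lie at chr12:25096093-25096342 on the minus strand for Id2, chr4:136143572-136143821 on the plus strand for Id3 and chr13:48260866-48261115 on the plus strand for Id4. Capitals mark 3 short words known from Smad binding, read on both strands: GTCT (complement AGAC), the palindrome GGCGCC, and the word GGAGCC (whose complement reads GGCTCC).
Id2: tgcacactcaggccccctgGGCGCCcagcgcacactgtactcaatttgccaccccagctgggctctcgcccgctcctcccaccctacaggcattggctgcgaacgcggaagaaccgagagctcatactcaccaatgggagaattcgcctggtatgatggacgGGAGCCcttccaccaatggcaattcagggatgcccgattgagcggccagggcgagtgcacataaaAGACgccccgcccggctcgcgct
Id3: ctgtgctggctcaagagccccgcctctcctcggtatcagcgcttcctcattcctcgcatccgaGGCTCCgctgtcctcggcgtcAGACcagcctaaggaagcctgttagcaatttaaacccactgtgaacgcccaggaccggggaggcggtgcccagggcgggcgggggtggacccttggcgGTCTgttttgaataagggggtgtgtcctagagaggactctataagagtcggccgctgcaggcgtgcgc
Id4: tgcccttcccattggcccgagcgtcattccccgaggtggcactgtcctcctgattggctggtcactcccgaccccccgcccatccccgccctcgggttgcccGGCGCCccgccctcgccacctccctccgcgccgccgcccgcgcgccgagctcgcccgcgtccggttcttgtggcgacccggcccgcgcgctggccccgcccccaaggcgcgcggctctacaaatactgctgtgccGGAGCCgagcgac
GTCT occurs 1 time in the window of Id2, 2 times in that of Id3 and 0 times in that of Id4, and 82.9% of 32851 RefSeq promoter windows hold it. GGCGCC occurs 1 time in Id2 and Id4 and 0 times in Id3, and 9.59% of all windows hold it. GGAGCC occurs 1 time in each, and 26.0% of all windows hold it. The longer word GTCTAGAC, which contains GTCT on both strands, is in none of the 3 and in 0.167% of all windows. These are matches of letters and show no binding.

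Id3, the one Id gene without overlap in its brightest probe set, read 10.14 and 10.01 on the control arrays and 10.59 and 10.39 on the DIO arrays. The difference was 0.42 ± 0.14 (SE, limma adjusted p = 0.728), a ratio of 1.34, and it was 0.35 against control 1 alone and 0.48 against control 2 alone. Id3 has 1 probe set. Id2 read 11.30, 10.67, 11.28 and 11.13, with control 1 at the top, and differed by 0.22 ± 0.25 (SE, limma adjusted p = 0.859). A second Id2 probe set, which also names this gene alone, gave another picture: 9.75 and 9.89 on the control arrays and 10.50 and 10.69 on the DIO arrays, without overlap and 0.78 ± 0.14 higher. The dimmest Id2 probe set differed by -0.07.

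Id4 and Id1, named after their values were seen, were both highest in control 2. Id4 read 8.02, 9.37, 8.14 and 7.88, a difference of -0.68 ± 0.49 (SE) that was -0.01 against control 1 alone, and all 3 of its probe sets had a lower DIO mean. In 1 dimmer Id4 probe set, at 7.20, 8.07, 7.06 and 6.64, the groups did not overlap, with a difference of -0.79 ± 0.35 (SE). Id1 read 9.99, 10.69, 10.16 and 10.09, and its difference of -0.22 ± 0.27 (SE) was 0.13 against control 1 alone.

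Tgfbi, a matrix protein induced by TGF-beta, read 7.85 and 8.16 on the control arrays and 7.58 and 7.21 on the DIO arrays. The groups did not overlap, and the difference was -0.61 ± 0.21 (SE, limma adjusted p = 0.728), the control level being 1.52 times that of DIO. Of its 4 probe sets 2 had a higher and 2 a lower DIO mean, and the mean over them differed by -0.13.

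Agreement among probe sets of 1 gene is a check within the same 4 RNA samples and adds no replicate. Of the 31 members with more than 1 probe set, 7 were higher in DIO in all of them, 10 lower in all and 14 of both signs. Groups were without overlap in every probe set for 7 of the 31: Bmp8b, Acvrl1, Smad1 and Smad7 higher, Acvr2a, Smad2 and Smad5 lower. Of all 9010 genes with several probe sets 9.94% met this. Over all 98 member probe sets 42.9% were without overlap, against 40.1% of all probe sets, and 14.3% had an unadjusted p below 0.05, against 8.04%. The lowest adjusted p over all probe sets in limma was 0.617.

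**Figure D4:**
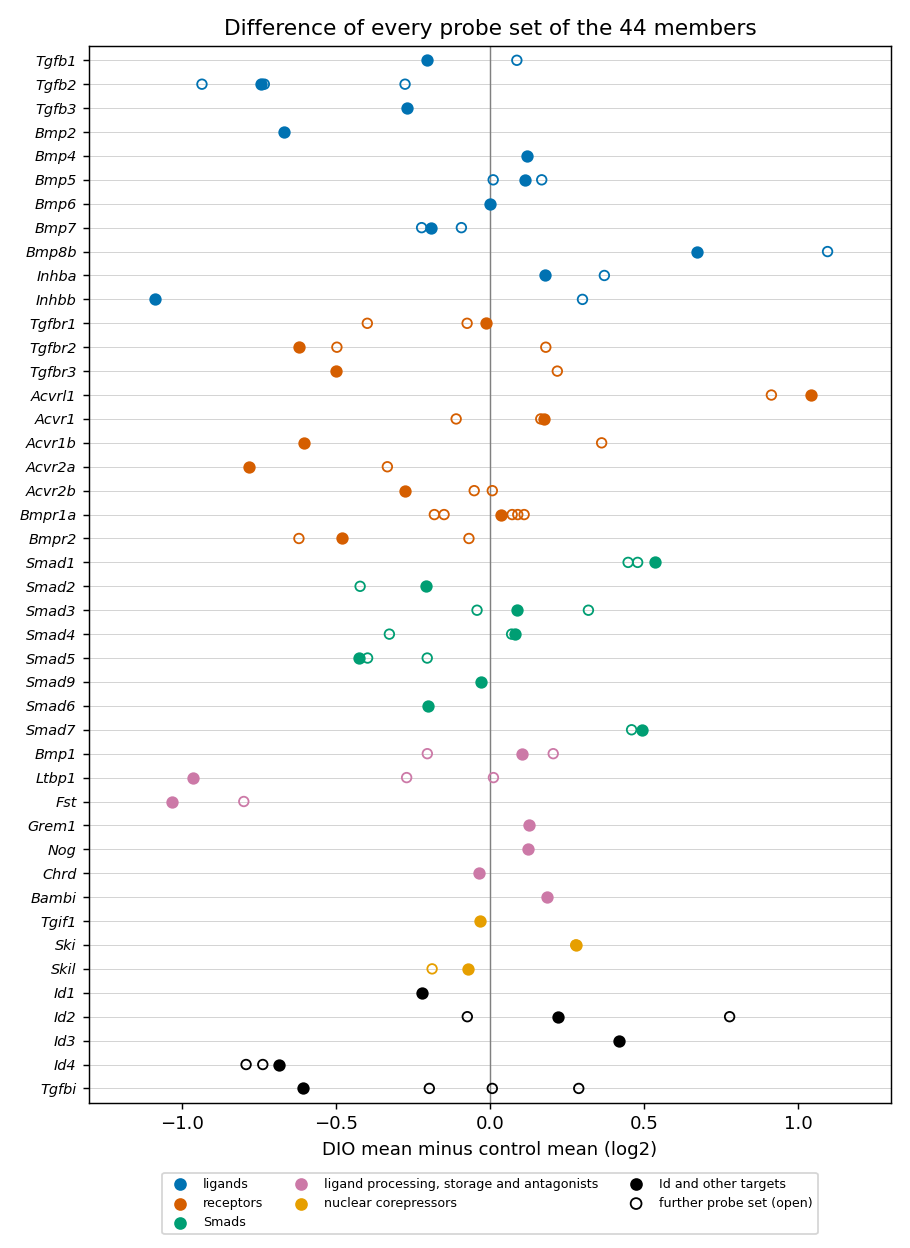
DIO mean minus control mean (log2) for all 98 probe sets of the 44 members, filled for the brightest probe set of a gene and open for the others, coloured by role. For Smad1 and Smad5 the points of a gene lie close together, at 0.45 to 0.54 and -0.42 to -0.20, while those of Inhbb lie at -1.09 and 0.30.

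Genes of the same pathway outside the member list were listed too. Of 81 listed, 71 were measured, with 37 higher and 34 lower in DIO, and 40.8% without overlap, near the 38.4% of all genes. At an unadjusted p below 0.05 there were 3 of them, or 4.23% against 6.58% of all genes, each with a limma adjusted p of 0.728. Smurf1, a ubiquitin ligase for BMP Smads and receptors, read 8.10 and 8.18 on the control arrays and 7.40 on both DIO arrays, a difference of -0.74 ± 0.12 (SE). Against control 1 alone it was -0.70, and both of its probe sets were lower in DIO. The ligands Gdf11 and Lefty1 were dim: Gdf11 read 4.64 and 4.86 on the control arrays and 5.11 and 5.52 on the DIO arrays, and Lefty1, an inhibitor of Nodal, 4.18 and 4.65 against 4.93 and 5.07. Among 11 intracellular regulators 7 were without overlap, 2 higher and 5 lower in DIO, where 21.4% of all genes lay above and 17.0% below. Among the 16 measured ligands 9 were without overlap, 8 higher and 1 lower, and 3 of the 16 had a mean level above 7.09. Without overlap were also 2 of 8 receptors and coreceptors, 6 of 17 antagonist, storage and processing genes, 3 of 10 TGF-beta targets and 2 of 9 BMP targets. The 10 measured TGF-beta target genes were 3 higher and 7 lower, with 7 highest in control 2, and the 9 measured BMP target genes were 5 higher and 4 lower.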

How the data were processed

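RNA of 4 samples was measured on Affymetrix mouse expression arrays, whose probe sets each read the 3-prime part of a transcript. The authors deposited log2 levels, 1 table for all arrays. How background was corrected, arrays normalized and probes summarised is not given in the sources used here. That the values are log2 was taken from their range, 2.59 to 14.56. Array medians were 5.63, 5.65, 5.61 and 5.61 over all probe sets; median centring used those over the tested genes. Detection calls were not used, so dim levels may be background.

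Of 45101 probe sets, 64 manufacturer controls were left out; 34945 had 1 gene symbol in the platform annotation, 932 had several and 9160 were not listed there. Each of 18193 genes was represented by its probe set with the highest mean, and all 34945 were fitted separately too. 1 further probe set that names Acvr2a together with another gene was left out. limma 3.58.1 in R 4.3.3 compared DIO with control (lmFit and eBayes, 2-sided, Benjamini-Hochberg), after a test on simulated data. The number of arrays limits precision: the 95% interval of a difference had a median half-width of 0.456, and an exact permutation test of 2 against 2 cannot go below p = 0.333.

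Members and lists were chosen with earlier results of these data known. Members were given in full where groups did not overlap and differed by 0.3 or more, where the unadjusted p was below 0.05, or where they were among the 2 brightest of their role, 23 in all; 6 more were picked after their values were seen. Of the other pathway genes, those with an unadjusted p below 0.05 were given. Alternatives were quantile normalization, median centring, leaving out the dimmest 40% of genes, averaging probe sets, leaving out x and s probe sets, trended robust eBayes, array weights, the mouse number as a block, and each array left out. With chromosome 18 left out, RefSeq promoter sequences (GRCm38.p6) matched 30 of the 44 members.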

Additional observations from a re-analysis of the deposited data

How the results depend on the processing

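Of 276 differences (23 members named by the rule under 12 alternatives) 265 kept their sign, and 16 of these members kept it throughout. Tgif1, at -0.03, became 0.034 with quantile normalization and 0.062 with median centring. Smad4, at 0.08, became -0.058 as the mean of its probe sets. Bmp6 is not among the 23 and so lies outside that tally. Its difference of -0.001 became 0.14 with quantile normalization and 0.091 with median centring. Leaving out 1 array at a time moved Tgif1 from -0.42 to 0.36, Acvr2b from -0.58 to 0.031, Bambi from -0.069 to 0.44, Bmp1 from -0.18 to 0.39 and Bmp4 from -0.35 to 0.59. It moved Smad4 from -0.025 to 0.19 and Id2 from -0.093 to 0.54. Among members outside the tally it moved Id1 from -0.57 to 0.13, Fst from -2.09 to 0.025 and Tgfb2 from -1.59 to 0.10. Bmp2 moved from -1.47 to 0.14 and Bmp6 from -0.64 to 0.63, both also outside it. The causes were not tested.

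In limma, 1198 genes had an unadjusted p below 0.05 and 0 passed after adjustment. Leaving out the dimmest genes gave 607, with fewer genes tested, and leaving out 1 array 171 to 3689, with 0 to 483 past the adjusted threshold. The matching counts of members were 0 to 23 at an unadjusted p below 0.05 and 20 to 38 without overlap, against 6 and 16, and their median difference ran from -0.19 to 0.0071. With fewer arrays absence of overlap is easier to reach: it was seen for 86.4% of members and 79.7% of all genes without control 1, 81.8% and 75.7% without control 2, 59.1% and 62.0% without DIO 1, and 45.5% and 59.0% without DIO 2. The adjusted threshold was passed in the fit without control 1 and in no other alternative, by 3 of the 44 members. Of the genes with an unadjusted p below 0.05, 594 were higher and 604 lower, against 1072 and 327 with median centring and 772 and 473 with quantile normalization. Mouse numbers are shared by both groups but name separate mice, and the deviations of same-numbered arrays correlated at 0.333. With the replicate number as a block 982 genes and 5 members had an unadjusted p below 0.05, and 0 genes passed after adjustment.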
